A study of Bos taurus with 6 samples.

Results

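The miR-23/24/27 miRNAs are the products of a pair of related hairpin clusters. Their rows were taken by name from the miRNA part of the deposited table, as bta-miR-23a, bta-miR-23b, bta-miR-24, bta-miR-27a and bta-miR-27b with or without an arm suffix. This gave 8 of the 765 miRNAs in the table: bta-miR-23a, bta-miR-23b-3p, bta-miR-23b-5p, bta-miR-24, bta-miR-24-3p, bta-miR-27a-3p, bta-miR-27a-5p and bta-miR-27b. The cells were primary bovine myoblasts, the muscle precursors that fuse into fibers, cultured from longissimus dorsi muscle of fetal beef cattle. The RSV group comprised 3 samples treated with 20 μM resveratrol, a plant polyphenol, and the DMSO group comprised 3 control samples that received the solvent alone. Both groups were kept for 4 days in differentiation medium. The study describes independent experiments for each group but names no animal for any sample, so the spread between libraries may be partly technical. The cultures were made by digesting whole muscle, and the medium was moved to a new dish soon after plating, which leaves behind cells that attach fast, such as fibroblasts. The share of other muscle-resident cells was not measured here.

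A mature miRNA guides the silencing complex to transcripts that pair with its seed, and the transcripts are then repressed. In mammals the miR-23a, miR-27a and miR-24-2 hairpins lie side by side in 1 cluster, and the miR-23b, miR-27b and miR-24-1 hairpins lie side by side in the other. The bovine RefSeq gene table (ARS-UCD2.0) shows the same order, MIR23A, MIR27A, MIR24-2 and MIR23B, MIR27B, MIR24-1, with 0 other genes between the hairpins of either cluster, and each cluster lies within a gene, LOC132345691 for miR-23a and AOPEP for miR-23b. In muscle, miR-27 is known to repress PAX3 when satellite cells begin to differentiate and to repress myostatin. miR-23a is known to repress the muscle ubiquitin ligases atrogin-1 and MuRF1, and miR-24 is known to rise during myoblast differentiation. The a and b forms of miR-23 and of miR-27 are nearly identical in sequence, and the mature miR-24 is made from both clusters. How reads were shared among such copies is not given in the sources used here, so the split between a and b forms is uncertain.

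The table holds the authors' mean of normalized reads per group, that is, read counts divided by a size factor that scales each library for depth. These means summed over all miRNAs to 6637955 in the RSV group and 7340618 in the DMSO group. Shares of all miRNA reads given below are shares of these sums. Some abundant rows repeat or nearly repeat the values of others. For example, bta-let-7b and bta-miR-3596 both had 12896 in RSV and 14991 in DMSO. bta-miR-199a-3p (321333 and 407149) and bta-miR-3604 (321286 and 407041) were nearly equal. Reads behind such rows may be counted more than once in the sums. Each mean of up to 1000 normalized reads was also written as a sum of whole reads over 3 size factors, which returned the reads of single libraries where only 1 combination was possible. RSV libraries had size factors of 1.54, 1.29 and 0.935, and DMSO libraries had 0.922, 0.823 and 0.729. Libraries are named by these factors because they carry no replicate number. The reads of single libraries were obtained in both groups for bta-miR-23b-5p and bta-miR-24. For bta-miR-27a-5p they were obtained in the DMSO group alone, and the other 5 members were too abundant. Those 5 are therefore given by their group means, from which no SD and no test could be had. The study also describes values of single samples in a supplement, which were not used here.

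The muscle miRNAs ranged widely in level. bta-miR-206 had group means of 127629 (RSV) and 139464 (DMSO) normalized reads, and bta-miR-1 had 28912 and 30883. bta-miR-133a had 7817 and 7453, and bta-miR-133b had 5687 and 5550. Lower were bta-miR-486 (558 and 572), bta-miR-499 (114.5 and 46.1) and bta-miR-208b (30.5 and 32.5), and miR-208a was not found. bta-miR-143, bta-miR-145, bta-miR-199a and bta-miR-214, which are abundant in fibroblasts and smooth muscle, were also present, at sums of 843119 and 970537. The 5 rows of the blood cell list summed to 75.9 to 467 normalized reads per RSV library and 91.1 to 171 per DMSO library, with bta-miR-223 at 0 in all 3 RSV libraries. bta-miR-451 alone had 463 normalized reads in the RSV library of size factor 1.29, against 53.4 to 97.4 in the other 5 libraries. Of markers of other tissues, bta-miR-126-3p (endothelium) had group means of 296 in RSV and 265 in DMSO, bta-miR-122 (liver) 88.4 and 43.6, bta-miR-9-5p (neurons) 1109 and 1097 and bta-miR-124a (neurons) 0.356 and 3.44. miR-144 was not found among the rows. Whether these cell types contributed to the levels of the miR-23/24/27 miRNAs was not tested.

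The members spanned more than 3 orders of magnitude in level, and their order by group mean was the same in RSV and DMSO. bta-miR-27b was the most abundant, with a mean of 165646 normalized reads in RSV and 193198 in DMSO. It ranked 7 of the 765 rows in either group and held 2.50% of the summed miRNA means in RSV and 2.63% in DMSO. bta-miR-24-3p followed with 20780 in RSV and 17493 in DMSO, ranks 30 and 34. bta-miR-27a-3p had 13503 in RSV and 12821 in DMSO, next to bta-miR-23a with 12018 in RSV and 11813 in DMSO. bta-miR-23b-3p had 5457 in RSV and 6021 in DMSO. The remaining rows were far lower: bta-miR-27a-5p, the arm of its hairpin that is mostly degraded, had 649.9 in RSV and 807 in DMSO. bta-miR-24, whose arm the table does not name, had 95.0 in RSV and 95.4 in DMSO, and bta-miR-23b-5p had 53.9 in RSV and 54.4 in DMSO. A miRNA read covers the whole mature molecule, so these levels need no length correction, but miRNAs of different sequence can be captured with different efficiency. The spread between libraries was not recovered for the neighbors bta-miR-27a-3p and bta-miR-23a. Their order within a group rests on means that differ 1.12-fold in RSV and 1.09-fold in DMSO.

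**Figure D1:**
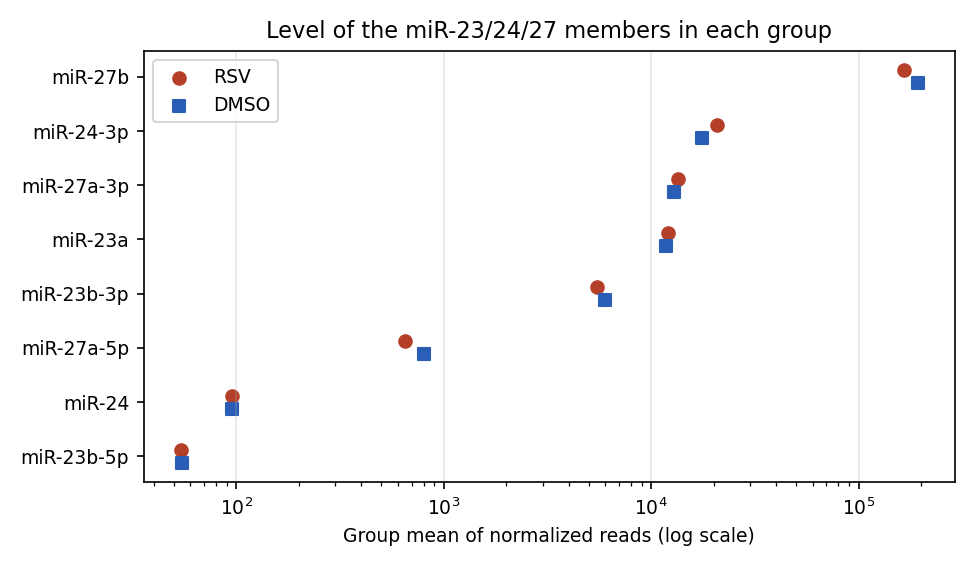
Group means of normalized reads (horizontal axis, log scale) of the 8 miR-23/24/27 miRNAs in RSV (circles) and DMSO (squares); each point is the authors' mean of 3 libraries and has no error. bta-miR-27b lies at 165646 and 193198, and bta-miR-23b-5p at 53.9 and 54.4, while the distance between the groups is small for every member.

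Together the 8 members held 3.29% of all miRNA reads in RSV and 3.30% in DMSO. bta-miR-27b alone made up 75.9% of the members' reads in RSV and 79.7% in DMSO. The main products of the miR-27 family, bta-miR-27a-3p and bta-miR-27b, made up 82.1% and 85.0%. The 2 rows of miR-24 made up 9.57% of the members' reads in RSV and 7.26% in DMSO. These shares of group means were not tested.

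Whether RSV changed the amount of these miRNAs was examined by the log2 ratio of the group means (log2FC, RSV to DMSO). The 2 most abundant members had ratios of opposite sign: the mean of bta-miR-24-3p was 1.19-fold higher in RSV (log2FC 0.25), and that of bta-miR-27b was 1.17-fold lower (log2FC −0.22). bta-miR-23b-3p had a log2FC of −0.14. bta-miR-27a-3p and bta-miR-23a differed less, with log2FC values of 0.075 and 0.025. Among the rows with fewer reads, bta-miR-27a-5p had a log2FC of −0.31, and bta-miR-24 and bta-miR-23b-5p had values of −0.0060 and −0.014. In all, 3 members had a higher and 5 a lower mean in RSV. Of the lower ones, bta-miR-24 and bta-miR-23b-5p had almost equal means in the groups. The median over the 8 members was −0.010, beside 0.0049 over the 391 miRNAs whose normalized reads averaged at least 10 over both groups. Of these 391, 202 had a higher and 189 a lower mean in RSV.

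A difference of at least 1.2-fold between group means was found for 1 of the 8 members, bta-miR-27a-5p, which was lower in RSV. Over the 391 miRNAs the same criterion was met by 133 (34.0%), of which 71 were higher (18.2% of the 391) and 62 lower in RSV (15.9%). At 1.1-fold, bta-miR-24-3p (higher) and bta-miR-27b, bta-miR-23b-3p and bta-miR-27a-5p (lower) met it, 4 of 8 members, against 61.4% of the 391 miRNAs, 31.5% higher and 29.9% lower. At 1.5-fold, 0 members met it, against 9.72% of the 391 miRNAs. The differences of the members thus lay within those of the table as a whole. A difference as large as that of bta-miR-24-3p was seen in 36.1% of the 391 miRNAs and in 25.3% of the 146 with a mean of at least 1000, a limit set after seeing the data. For bta-miR-27b these shares were 42.2% and 28.8%.

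**Figure D2:**
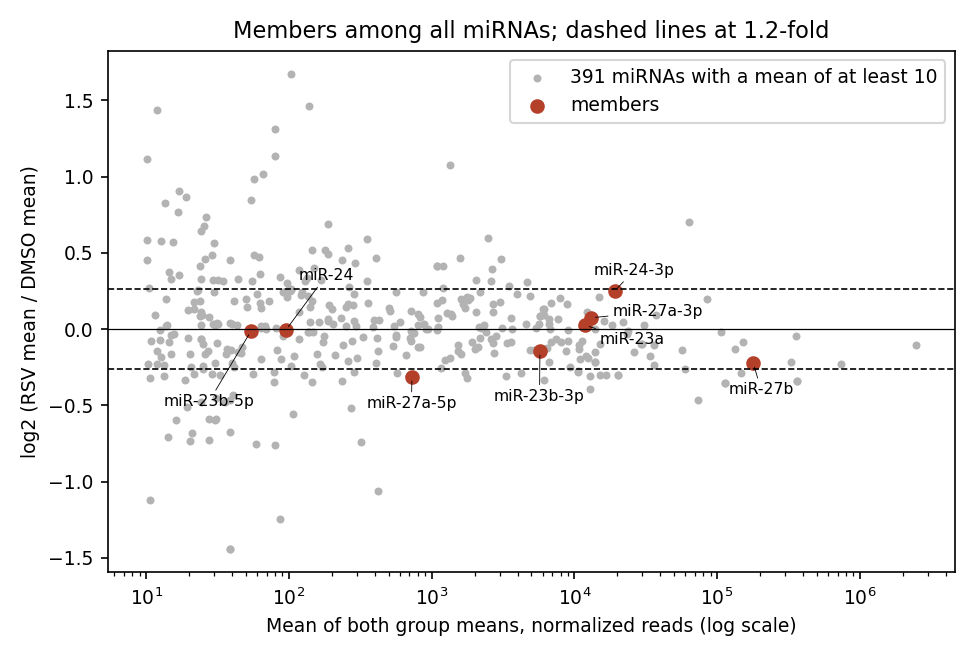
log2 ratio of the RSV to the DMSO group mean (vertical axis) against the mean of both group means in normalized reads (horizontal axis, log scale) for the 391 miRNAs with a mean of at least 10 (gray) and the 8 members (red). Dashed lines mark 1.2-fold, and of the members only bta-miR-27a-5p, at −0.31, lies outside them.

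Counting error was small for the abundant members. The group means fix a lower limit to the reads behind them, which was 464811 reads in RSV and 422474 in DMSO for bta-miR-27b. The 95% counting interval of its log2FC was at most 0.0060 to either side, and that of bta-miR-24-3p at most 0.019. These intervals cover counting error only. The spread between libraries was known for miRNAs with fewer reads: for the 66 recovered miRNAs that averaged at least 100 normalized reads, the median within-group SD was 0.15 on the log2 scale, and the median standard error of the RSV to DMSO difference was 0.12 (from limma voom, described below). Whether bta-miR-24-3p and bta-miR-27b varied as much between libraries could not be measured from their group means. The values of single samples in the supplement were not used, so no statement on the significance of their differences is made.

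The direction of several members depended on how the groups were scaled. The summed means were lower in RSV than in DMSO, and taking each mean as a share of all miRNA reads shifted every log2FC up by 0.15. On this scale bta-miR-24-3p had a log2FC of 0.39, bta-miR-27a-3p 0.22 and bta-miR-23a 0.17. The value of bta-miR-27b was −0.077 and that of bta-miR-27a-5p −0.17, so both were still lower in RSV. bta-miR-23b-3p (0.0031), bta-miR-24 (0.14) and bta-miR-23b-5p (0.13) changed sign. The 1.2-fold criterion was then met by bta-miR-24-3p in place of bta-miR-27a-5p, again 1 of 8 members. Of all 391 miRNAs, 154 met it on this scale, 128 higher and 26 lower in RSV. Of the miRNAs that met it, 83.1% were higher in RSV, against 53.4% with the size factors.

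**Figure D3:**
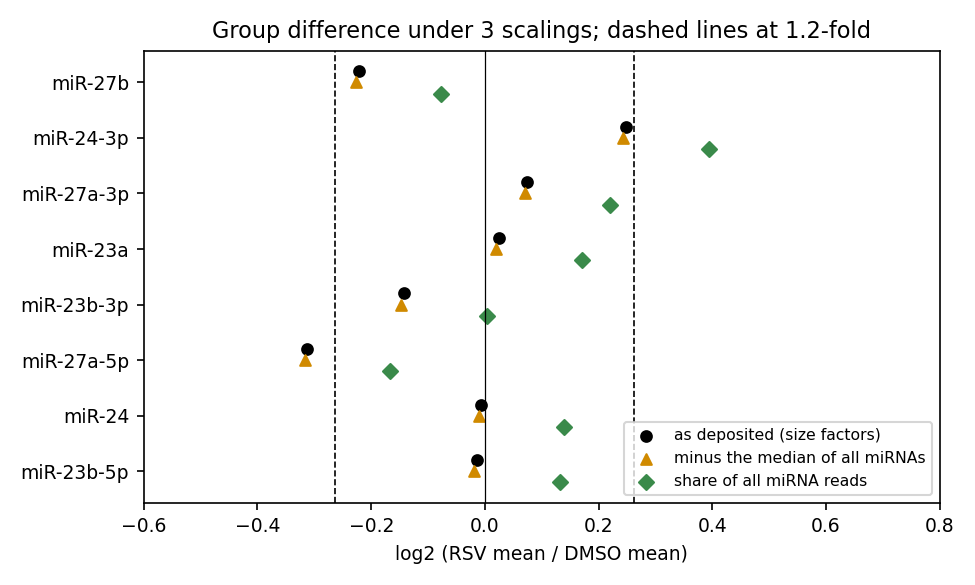
log2 ratio of the RSV to the DMSO group mean (horizontal axis) of each member as deposited (circles), after subtracting the median of the 391 miRNAs (triangles) and as a share of all miRNA reads (diamonds). Dashed lines mark 1.2-fold; the diamonds lie 0.15 to the right of the circles, which moves bta-miR-24-3p outside the lines and bta-miR-27a-5p inside them.

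Ratios between members do not depend on the scaling of the groups. The ratio of bta-miR-24-3p to bta-miR-27b was 0.0905 in DMSO and 0.125 in RSV, a log2 difference of 0.47. That of bta-miR-24-3p to bta-miR-23b-3p was 2.91 in DMSO and 3.81 in RSV, a log2 difference of 0.39. Between the a and b forms, bta-miR-27b exceeded bta-miR-27a-3p 15.1-fold in DMSO and 12.3-fold in RSV, while bta-miR-23a exceeded bta-miR-23b-3p 1.96-fold in DMSO and 2.20-fold in RSV. Both ratios thus lay further toward the miR-23a cluster in RSV. Within a cluster the ratios were closer: bta-miR-27a-3p to bta-miR-23a was 1.09 in DMSO and 1.12 in RSV, and bta-miR-27b to bta-miR-23b-3p was 32.1 in DMSO and 30.4 in RSV. These ratios of group means have no replicate error, and none was tested.

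The clusters were also compared by the summed means of the miRNAs that only 1 of them encodes, leaving out miR-24. The miR-23a cluster (bta-miR-23a and both arms of miR-27a) summed to 26171 normalized reads in RSV against 25440 in DMSO (log2FC 0.041). The miR-23b cluster (both arms of miR-23b and bta-miR-27b) summed to 171157 in RSV against 199274 in DMSO (log2FC −0.22). The difference between the clusters was 0.26 on the log2 scale and 0.27 without the 5p rows. It was not tested, since library values were not recovered for every member, and the sum of the miR-23b cluster is almost wholly bta-miR-27b.

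The arms of a hairpin were compared where the table names both. For miR-23b the 3p arm exceeded the 5p arm 111-fold in DMSO and 101-fold in RSV. For miR-27a the 3p arm exceeded the 5p arm 15.9-fold in DMSO and 20.8-fold in RSV, a log2 difference of 0.39. The mean of bta-miR-27a-3p was higher and that of bta-miR-27a-5p lower in RSV with the size factors, and as a share of all miRNA reads the former was higher and the latter lower as well. The arm ratio rests in part on bta-miR-27a-5p, whose RSV libraries varied widely.

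bta-miR-27a-5p had 739.7, 893.8 and 787.5 normalized reads in the DMSO libraries, in order of falling size factor, a mean of 807 ± 78.9 (SD, n = 3). In the RSV group 4 combinations of whole reads gave its mean, and the mean alone could not tell the true one from the others. In the order of size factors 1.54, 1.29 and 0.935, these were 101, 1687 and 161, or 184, 275 and 1490, or 472, 1039 and 439, or 842, 390 and 717 normalized reads. In each of the 4 combinations 2 of the 3 RSV libraries lay below the lowest DMSO library and the other RSV library lay above it. The highest RSV library exceeded the lowest 16.7-fold, 8.09-fold, 2.36-fold and 2.16-fold in these combinations, in the order given, against 1.21-fold in DMSO. With the combinations entered in turn, limma voom with Benjamini-Hochberg adjustment gave log2 differences from −1.40 (standard error 0.89, adjusted p = 0.365) to −0.38 (standard error 0.25, adjusted p = 0.378). The largest adjusted p of the 4 was 0.403. The lower mean of bta-miR-27a-5p in RSV thus did not pass the threshold of 0.05 in any combination.

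In order of falling size factor, bta-miR-24 had 92.1, 102.0 and 90.9 normalized reads in RSV libraries, against 91.1, 114 and 80.9 in DMSO libraries. The DMSO libraries spread on either side of the RSV libraries, and the groups overlapped. These values came from 142, 132 and 85 whole reads in RSV, against 84, 94 and 59 in DMSO. The means were 95.0 ± 6.10 and 95.4 ± 17.0 (SD, n = 3 each; two-sided exact permutation test, p = 0.9, where 3 libraries against 3 cannot go below 0.1). limma voom, which fits log2 counts with a weight for the precision of each, was run on the 209 miRNAs with recovered reads and a mean of at least 10. It gave bta-miR-24 a log2 difference of 0.0014 (standard error 0.14, adjusted p = 0.993), with a 95% interval from −0.32 to 0.32. A rise or fall of bta-miR-24 within that interval was not excluded here.

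In the same order, bta-miR-23b-5p had 68.1, 34.8 and 58.8 normalized reads in RSV libraries, against 55.3, 66.8 and 41.2 in DMSO libraries. The lowest value of all belonged to the RSV library of size factor 1.29 and the highest to that of 1.54, so the groups overlapped. The whole reads behind these values numbered 105, 45 and 55 in RSV, against 51, 55 and 30 in DMSO. The means were 53.9 ± 17.2 and 54.4 ± 12.8 (SD, n = 3 each; two-sided exact permutation test, p = 1). The log2 difference from limma voom was −0.047 (standard error 0.28, adjusted p = 0.926), with a 95% interval from −0.68 to 0.58. Without the RSV library of size factor 1.29 the difference was 0.25 and without that of size factor 1.54 it was −0.27, and in neither case did it pass the threshold.

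**Figure D4:**
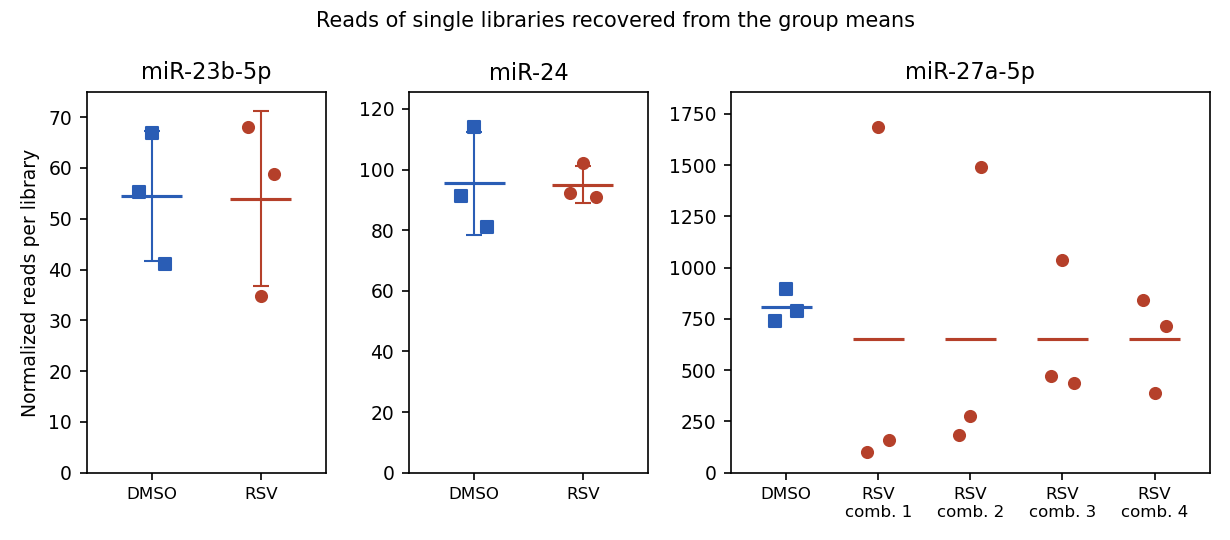
Normalized reads per library (vertical axis, from 0) of bta-miR-23b-5p, bta-miR-24 and bta-miR-27a-5p in DMSO (squares) and RSV (circles), with the mean as a horizontal line and the SD as bars for the first 2 miRNAs. For bta-miR-27a-5p each of the 4 possible RSV combinations is drawn in its own column; in each, 2 RSV libraries lie below the lowest DMSO library at 739.7.

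Of the 209 miRNAs tested, limma voom with Benjamini-Hochberg adjustment called 20 (9.57%) under 0.05, 11 higher and 9 lower in RSV. Among the lower ones, bta-miR-1814c and bta-miR-2310 had the same reads in every library (36, 23 and 20 in RSV, 56, 41 and 43 in DMSO). Their calls are therefore not separate. bta-miR-24 and bta-miR-23b-5p were not among the 20. Without any 1 library this count ranged from 4 (without the DMSO library of size factor 0.729) to 23, and it was 5 and 7 without the DMSO libraries of size factors 0.922 and 0.823 and 13 without the RSV library of size factor 1.54. The 3 miRNAs whose levels over the 6 libraries were most like those of bta-miR-24 were bta-miR-2411-5p, bta-miR-331-5p and bta-miR-130b, with Pearson correlations of 0.98, 0.94 and 0.89 of log2 normalized reads. They are the highest of 208 such correlations over 6 libraries that share their size factors, and are given as a description.

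The members were set beside the muscle miRNAs, which accompany differentiation. Of the 8 named in the list, 7 were found among the rows, and 1 of these, bta-miR-499, differed at least 1.2-fold between the group means, against 34.0% of the 391 miRNAs. bta-miR-499, encoded within a slow myosin gene, had a log2 difference of 1.27 in the same limma voom fit (standard error 0.28, adjusted p = 0.0251). In order of falling size factor, its RSV libraries had 91.5, 162 and 89.8 normalized reads, against 41.2, 44.9 and 52.1 in DMSO. Whether its call held with single libraries left out was not examined. bta-miR-208b, also encoded within a slow myosin gene and the only other muscle miRNA with recovered reads, had a log2 difference of −0.089 (standard error 0.17, adjusted p = 0.803), and its groups overlapped. The median log2FC of the 7 was −0.036, beside −0.010 over the 8 miR-23/24/27 miRNAs. bta-miR-128, a relative whose seed overlaps that of miR-27, had 6805 normalized reads in RSV against 6512 in DMSO (log2FC 0.064). It was thus less abundant than bta-miR-27a-3p in both groups.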

How the data were processed

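The authors filtered the 50-base small RNA reads, mapped them to UMD_3.1.1/bosTau8 with Bowtie (version 0.12.9 in the submitters' processing notes), named miRNAs by miRBase and miRDeep2, and compared the groups with DESeq. Per the file headers, the deposited table holds read counts, which its values show to be group means of counts divided by size factors. The authors' log2 fold changes and P-values, and the mRNA part, in which most decimal points were lost, were not used. Groups follow the sample titles.

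Every sum of whole reads over size factors within the rounding of a mean was listed, with the size factors estimated by least squares. Of the means for which fewer than 0.01 combinations were expected by chance, 470 of 470 in RSV and 481 of 481 in DMSO had exactly 1. On simulated means, 585 of 619 (RSV) and 617 of 619 (DMSO) had 1 combination, right in each case. Recovered reads were tested with limma 3.58.1 (voom, R 4.3.3), with library sizes set by the size factors and a minimum mean of 10. In simulated reads of these 209 miRNAs, 39 of 40 with a log2 change of 1 were recovered and 2 others called. Every miRNA was simulated with the same spread beyond counting error. Smaller changes, such as the differences between the members' group means, were not simulated. Other steps used Python 3.11.15, scipy 1.17.1, numpy 2.4.6 and matplotlib 3.10.9.

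The members and lists were chosen with earlier results of these data known. Named miRNAs are the 8 members, the muscle and marker lists, miR-128 and the 3 miRNAs most like bta-miR-24. Alternatives were a pseudocount, another scaling, centring, other folds and minimum means, another model and each library left out. mRNA targets were not analysed here.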

Additional observations from a re-analysis of the deposited data

How the results depend on the processing

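With a pseudocount of 1 or after centring on the median, the log2FC of each of the 8 members moved by less than its spread or counting interval. As a share of all miRNA reads the log2FC was 0.17 for bta-miR-23a, 0.0031 for bta-miR-23b-3p and 0.39 for bta-miR-24-3p. It was 0.22 for bta-miR-27a-3p, −0.17 for bta-miR-27a-5p and −0.077 for bta-miR-27b. The count of members past 1.2-fold was then 1, with bta-miR-24-3p in place of bta-miR-27a-5p, beside 154 of the 391 miRNAs. Relative to the median of miRNAs with a mean of at least 1000, an alternative chosen after seeing the data, bta-miR-27b came to −0.21. At 1.5-fold and 1.1-fold the members past the criterion numbered 0 and 4, and the miRNAs 38 and 240. The count of miRNAs past 1.2-fold, 133 of 391, became 34 of 146 with a minimum mean of 1000. It was 442 with no minimum mean and 65 with a minimum of 100, where the number of miRNAs considered also differs from 391. The limma voom difference of bta-miR-24 was −0.034 with library sizes from the sum of recovered reads. Without each library in turn, it ranged from −0.092 to 0.14, that of bta-miR-23b-5p from −0.27 to 0.25, and the count of calls from 4 to 23, against 18 to 25 under the other settings. Neither member passed the threshold under any of these settings. No paired analysis was possible because the table holds group means and the recovered libraries carry no replicate number. Depth did not limit the abundant members, for which the spread between libraries was not recovered. For bta-miR-23b-5p, with 30 to 105 reads per library, counting error adds to the spread. The causes of these changes were not tested.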

Other observations

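Some of the miRNAs that mark other tissues were high in a single RSV library, and others were even across the RSV libraries. The examples were chosen after their values were seen. bta-miR-122, known from liver, had 200.5 normalized reads in the RSV library of size factor 1.54 and between 26.3 and 38.5 in the other 2 RSV libraries. bta-miR-451, known from red blood cells, had 463 in the RSV library of size factor 1.29 and between 66.8 and 81.3 in the other 2. bta-miR-150, known from lymphocytes, had 72.7 in the RSV library of size factor 0.935 and 3.24 and 1.55 in the other 2, and bta-miR-142-5p, known from white blood cells, had 66.3 in the same library and 4.54 and 2.32 in the other 2. Each of these 4 miRNAs was thus high in 1 RSV library, and the groups overlapped for each. bta-miR-142-3p, the other arm of miR-142, had 35.3 in the library of size factor 0.935 and 1.30 and 0 in the other 2. bta-miR-223, known from myeloid cells, was at 0 in all 3 RSV libraries, that of size factor 0.935 included, and had 1.08, 3.64 and 9.60 in DMSO libraries. bta-miR-126-3p (endothelium) ranged from 172 to 365 in RSV libraries. bta-miR-126-5p (9.08, 9.27 and 9.62) and bta-miR-9-3p (neurons; 62.3, 62.6 and 69.5) were even across the RSV libraries, and bta-miR-124a (neurons) had at most 1.07. The DMSO libraries had 17.0 to 87.8 for bta-miR-122, 53.4 to 97.4 for bta-miR-451, 25.5 to 41.2 for bta-miR-150 and 6.07 to 17.8 for bta-miR-142-5p. In the RSV library of size factor 1.29, where bta-miR-451 was highest, bta-miR-23b-5p had its lowest value of 34.8 and bta-miR-24 its highest RSV value of 102.0. Whether these were related was not tested.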
